A study of Arabidopsis thaliana with 8 samples.

Results

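The genes described are UDP-dependent glycosyltransferases (UGTs) and glutathione S-transferases (GSTs) of Arabidopsis thaliana. A gene belonged to the set if its RefSeq symbol or a synonym began with UGT and a number, or with GSTU, GSTF, GSTL, GSTT or GSTZ and a number, and if the array annotation paired a probe set with that gene alone. GSTU20, UGT73C6 and UGT71C1 were left out by the same rule. Of 112 such genes in RefSeq, 66 were measured and kept, 53 of 64 UGTs and 13 of 48 GSTs, among 16554 genes tested in all. The GSTs kept were 10 of 28 tau, 2 of 12 phi and 1 of 3 lambda genes, and 0 of the theta and zeta genes. The other GSTs and UGTs were not analysed here.

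UGTs move a sugar from a UDP-sugar onto a small acceptor such as a hormone, a flavonoid, a phenolic acid or a foreign compound, which makes it more soluble and often inactive. GSTs join the tripeptide glutathione to reactive or foreign compounds or, in the lambda class, act as thiol transferases. In seedlings both families are known for detoxification and for setting the levels of hormones and pigments, and many of their genes sit in rows of close copies.

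RNA came from pools of about 120 whole seedlings of the Columbia background, aged 7 days, with 2 biological repeats, 1 array each, in every one of 4 groups. The first group was a single mutant line carrying fh1-1, an allele of FH1, the gene of a formin, a protein that starts and lengthens actin filaments; these seedlings stayed on solid MS medium in 16 h light and 8 h dark. Its reference was the backcrossed wild-type sister line on the same medium. The other 2 groups were the same wild-type line after 6 days on solid medium and 1 day in shaken liquid MS medium in continuous light, either with 20 uM SMIFH2, an inhibitor of the formin FH2 domain, or without it. The labels do not say if the liquid control held the drug's solvent. FH1 itself had no listed probe set and was not analysed here, so the genotype could not be checked.

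Each value is a log2 level, so that a difference of 1 is a doubling, and levels of different genes are not set against each other because each has its own probes. Arrays of a group correlated across genes at r = 0.988 to 0.993. The fh1-1 arrays correlated with the SMIFH2 arrays at r = 0.990, although genotype, medium and light differed, with the wild-type arrays of solid medium at 0.952 to 0.960, while SMIFH2 arrays correlated with liquid controls at 0.964 to 0.971. With 2 arrays a group, the median standard error of a change was 0.18, a 95% interval of about 0.40 on either side. The threshold was an adjusted p of 0.05 in limma over all 16554 genes, and a gene that met it is said to have passed. Of the 66 genes, 11 stood at or under the 25th percentile of every array (2.13 to 2.24), where signal was not shown to exceed background, and 0 of these passed in any comparison. Fewer transcripts per cell and fewer cells of a type cannot be told apart in whole seedlings. Both organs were present: the leaf gene RCA stood at 9.30 or more and the root gene PYK10 at 11.9 or more on every array.

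The first question was what fh1-1 changed on solid medium. Of the 66 genes 23 passed, 6 higher and 17 lower in fh1-1, and in all 23 the arrays of the 2 groups did not overlap. How often this holds for all genes that passed was not computed. The lack of overlap, here and below, is therefore not a result about the set. That is 34.8% of the set, where 22.6% of all genes tested passed. The higher genes were 9.09% against a background of 10.9%, and the lower genes 25.8% against a background of 11.7%. The median change was -0.11, and -0.05 over all genes. Without array 1 of fh1-1 the count was 11 (5 higher, 6 lower), where 12.4% of all genes passed, and without array 2 it was 11 (4 higher, 7 lower), where 13.9% passed.

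**Figure D1:**
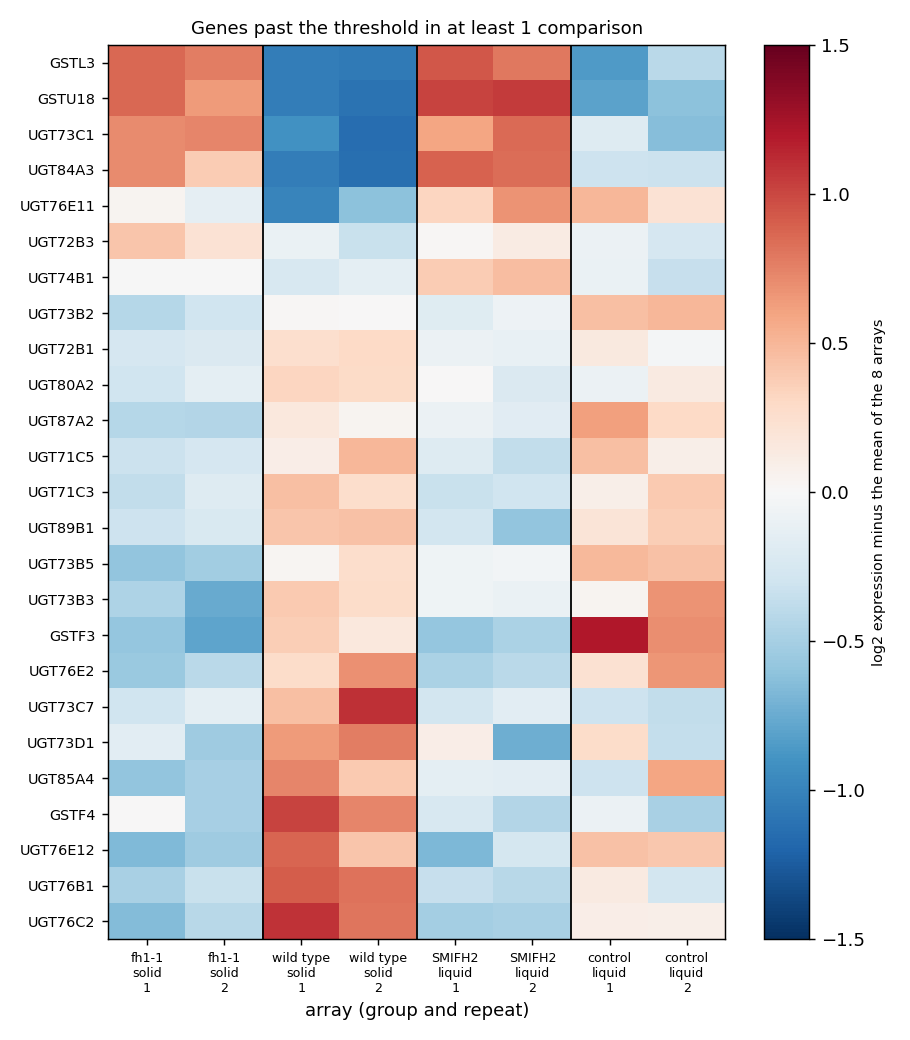
Log2 expression minus the mean of the 8 arrays, for the 25 genes that passed in at least 1 comparison (rows, ordered by the fh1-1 change) on each array (columns; red is above and blue below the gene's mean). The 4 top rows are high on the 2 fh1-1 and the 2 SMIFH2 arrays and low on both sets of controls.

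A set of 4 genes rose more than 2-fold in fh1-1 and kept that call in all 16 alternative settings, which were 8 choices of processing and the omission of each of the 8 arrays. GSTL3 (AT5G02790), the lambda-class gene, stood at 10.02 and 9.93 on the fh1-1 arrays, against 8.12 and 8.10 in wild type. It rose by 1.86 ± 0.17 (SE, n = 2 arrays per group), or 3.64-fold, at an adjusted p of 6.5e-05 in limma. GSTU18 (AT1G10360), of the tau class, stood at 6.50 and 6.27 in fh1-1, against 4.59 and 4.52 in wild type, and rose by 1.83 ± 0.15 (adjusted p = 3.4e-05 in limma). Both GSTs were far outside the spread of their own repeats.

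The other 2 were UGTs. UGT73C1 (AT2G36750), whose enzyme can glucosylate cytokinins, stood at 3.92 and 3.94 in fh1-1, against 2.30 and 2.06 in wild type, and rose by 1.75 ± 0.19 (adjusted p = 0.00014 in limma). UGT84A3 (AT4G15490), which forms glucose esters of hydroxycinnamic acids, stood at 4.28 and 3.96 in fh1-1, against 2.54 and 2.44 in wild type, and rose by 1.63 ± 0.16 (adjusted p = 7.8e-05 in limma). For both, the wild-type arrays lay near the 25th percentile of the arrays.

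The remaining 2 rises were smaller. UGT76E11 (AT3G46670) stood at 4.07 and 3.90 in fh1-1, against 3.05 and 3.43 in wild type (0.75 ± 0.19, adjusted p = 0.021 in limma). Leaving out array 1 or 2 of fh1-1 gave adjusted p values of 0.13 and 0.06, leaving out array 1 of wild type gave 0.13, and a test of every probe set gave 0.056. Here and after, a number beside an omitted array or another setting is limma's adjusted p under it. UGT72B3 (AT1G01420) stood at 4.66 and 4.45 in fh1-1, against 4.14 and 3.90 in wild type (0.54 ± 0.16, adjusted p = 0.038 in limma). It missed the threshold without array 1 (0.23) or 2 (0.077) of fh1-1, array 2 of wild type (0.2) or either SMIFH2 array (0.054), and in 3 other settings (0.053 to 0.069).

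The largest fall was that of UGT76C2 (AT5G05860), which attaches glucose to the ring nitrogen of cytokinins and thereby inactivates them. It stood at 3.26 and 3.49 in fh1-1, against 5.0 and 4.71 in wild type, a change of -1.48 ± 0.16 (adjusted p = 0.00015 in limma), or 2.79-fold lower. UGT76B1 (AT3G11340), which glucosylates isoleucic acid, salicylic acid and N-hydroxypipecolic acid and restrains immune responses, stood at 6.34 and 6.50 in fh1-1, against 7.74 and 7.64 in wild type (-1.27 ± 0.17, adjusted p = 0.00058 in limma). UGT76E12 (AT3G46660) stood at 3.56 and 3.69 in fh1-1, against 5.09 and 4.64 in wild type (-1.24 ± 0.20, adjusted p = 0.0015 in limma). GSTF4 (AT1G02950), a phi-class GST, stood at 4.0 and 3.50 in fh1-1, against 5.01 and 4.73 in wild type (-1.12 ± 0.21, adjusted p = 0.0044 in limma). These 4 falls passed in all 16 alternative settings, so that 3 of the 4 belong to family UGT76.

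Another 6 falls were near 2-fold and lost the call without 1 or more arrays. UGT85A4 (AT1G78270) stood at 3.28 and 3.38 in fh1-1, against 4.61 and 4.27 in wild type (-1.11 ± 0.26, adjusted p = 0.012 in limma). It reached 0.078 and 0.053 without array 1 or 2 of fh1-1, 0.08 without array 1 of wild type and 0.11 with the mean of its probe sets. UGT73D1 (AT3G53150) stood at 3.07 and 2.68 in fh1-1, against 3.87 and 3.99 in wild type (-1.05 ± 0.29, adjusted p = 0.026 in limma), and reached 0.055 to 0.16 without any single array of the 2 groups and 0.079 over every probe set. Its neighbour UGT73C7 (AT3G53160), which acts on hydroxycinnamic acids, stood at 2.68 and 2.82 in fh1-1, against 3.43 and 4.07 in wild type. Its change was -1.0 ± 0.20 (adjusted p = 0.0064 in limma), with 0.055 without array 1 of fh1-1.

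UGT76E2 (AT5G59590) stood at 1.43 and 1.58 in fh1-1, against 2.26 and 2.68 in wild type (-0.96 ± 0.20, adjusted p = 0.0065 in limma). Its fh1-1 arrays lay under the 25th percentile, and the call ended without array 1 of fh1-1 or array 2 of wild type (0.057 each). GSTF3 (AT2G02930), a phi-class gene with a very close copy in GSTF2, stood at 2.28 and 2.06 in fh1-1, against 3.22 and 3.01 in wild type (-0.95 ± 0.19, adjusted p = 0.0061 in limma; 0.056 without array 2 of fh1-1). The fh1-1 values of GSTF3 lay near the 25th percentiles of those arrays (2.16 and 2.18). UGT73B3 (AT4G34131), which takes part in the response to bacterial infection, stood at 3.09 and 2.80 in fh1-1, against 3.94 and 3.83 in wild type. Its change was -0.94 ± 0.21 (adjusted p = 0.01 in limma), with 0.085 without array 2 of fh1-1 and 0.056 without array 1 of wild type.

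The last 7 falls lay between -0.70 and -0.51, and each lost the call without at least 1 array of fh1-1. UGT73B5 (AT2G15480), also linked to resistance to pathogens, stood at 5.17 and 5.24 in fh1-1, against 5.80 and 6.02 in wild type (-0.70 ± 0.15, adjusted p = 0.0073 in limma). It reached 0.061 without array 1 of fh1-1 and 0.058 without array 2 of wild type. UGT89B1 (AT1G73880) stood at 3.30 and 3.38 in fh1-1, against 4.02 and 4.05 in wild type (-0.69 ± 0.16, adjusted p = 0.012 in limma), with 0.086 and 0.054 without array 1 or 2 of fh1-1 and 0.061 without array 2 of wild type. UGT71C3 (AT1G07260), which glucosylates methyl salicylate, changed by -0.63 ± 0.16 (adjusted p = 0.02 in limma), with 0.14 and 0.057 without array 1 or 2 of fh1-1 and 0.1 without array 1 of wild type.

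The other 4 of the 7 lost the call in 5 to 11 of the 16 alternative settings. UGT71C5 (AT1G07240), which makes the glucose ester of abscisic acid, changed by -0.59 ± 0.19 (adjusted p = 0.048 in limma), and by -0.39 without array 2 of wild type (0.28). It also missed the threshold without array 1 or 2 of fh1-1 (0.2 and 0.14), without either SMIFH2 array (0.065) and in 6 choices of processing (0.051 to 0.097). UGT87A2 (AT2G30140), which affects flowering time, changed by -0.53 ± 0.16 (adjusted p = 0.036), with 0.14 and 0.15 without array 1 or 2 of fh1-1, 0.14 and 0.087 without array 1 or 2 of wild type, 0.053 without either SMIFH2 array and 0.066 over every probe set. The sterol glucosyltransferase UGT80A2 (AT3G07020) changed by -0.53 ± 0.16 (adjusted p = 0.04), with 0.22 and 0.097 without array 1 or 2 of fh1-1, 0.13 and 0.12 without array 1 or 2 of wild type, 0.071 over every probe set and 0.056 with the repeat number as a block. UGT72B1 (AT4G01070), which glucosylates chlorinated phenols, changed by -0.51 ± 0.14 (adjusted p = 0.031), with 0.15 and 0.12 without array 1 or 2 of fh1-1, 0.079 and 0.13 without array 1 or 2 of wild type, and 0.08 with the trended robust prior.

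The second question was what SMIFH2 changed in liquid medium. Of the 66 genes 14 passed, 5 higher and 9 lower with SMIFH2, and in all 14 the arrays of the 2 groups did not overlap. That is 21.2% of the set against a background of 14.9%. The higher genes were 7.58% (background 7.78%) and the lower ones 13.6% (background 7.07%). Without array 1 of SMIFH2 the count was 6, where 7.55% of all genes passed, without array 2 it was 7 (8.49%), and without array 2 of the liquid control it was 8. In a fit of only these 4 arrays it was 8 as well, where 10.7% of all genes passed.

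The same 4 genes that led the rises in fh1-1 led them with SMIFH2. GSTU18 stood at 6.64 and 6.69 with SMIFH2, against 4.83 and 5.01 in the liquid control, and rose by 1.74 ± 0.15, or 3.34-fold (adjusted p = 8.3e-05 in limma). GSTL3 stood at 10.09 and 9.95 with SMIFH2, against 8.31 and 8.75 in the control (1.49 ± 0.17, adjusted p = 0.00044 in limma). UGT84A3 stood at 4.46 and 4.41 with SMIFH2, against 3.26 and 3.25 in the control (1.18 ± 0.16, adjusted p = 0.00094 in limma). UGT73C1 stood at 3.79 and 4.05 with SMIFH2, against 3.01 and 2.57 in the control (1.13 ± 0.19, adjusted p = 0.0031 in limma). All 4 passed in each of the 16 alternative settings.

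The largest fall with SMIFH2 was that of GSTF3, which stood at 2.27 and 2.38 with SMIFH2, against 4.06 and 3.55 in the control. Its SMIFH2 values lay near the 25th percentiles of those arrays (2.19 and 2.13). It changed by -1.48 ± 0.19 (adjusted p = 0.00084 in limma), or 2.79-fold lower, and passed in all 16 alternative settings. UGT76E12 stood at 3.55 and 3.96 with SMIFH2, against 4.66 and 4.62 in the control (-0.89 ± 0.20, adjusted p = 0.014 in limma; 0.11 without array 1 of SMIFH2, 0.064 without array 1 of the control). UGT76E2 stood at 1.51 and 1.58 with SMIFH2, under the 25th percentile, against 2.21 and 2.65 in the control (-0.89 ± 0.20, adjusted p = 0.015 in limma). It reached 0.087 and 0.063 without array 1 or 2 of SMIFH2 and 0.075 without array 2 of the control. Both UGT76E genes had thus moved the same way in fh1-1.

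**Figure D2:**
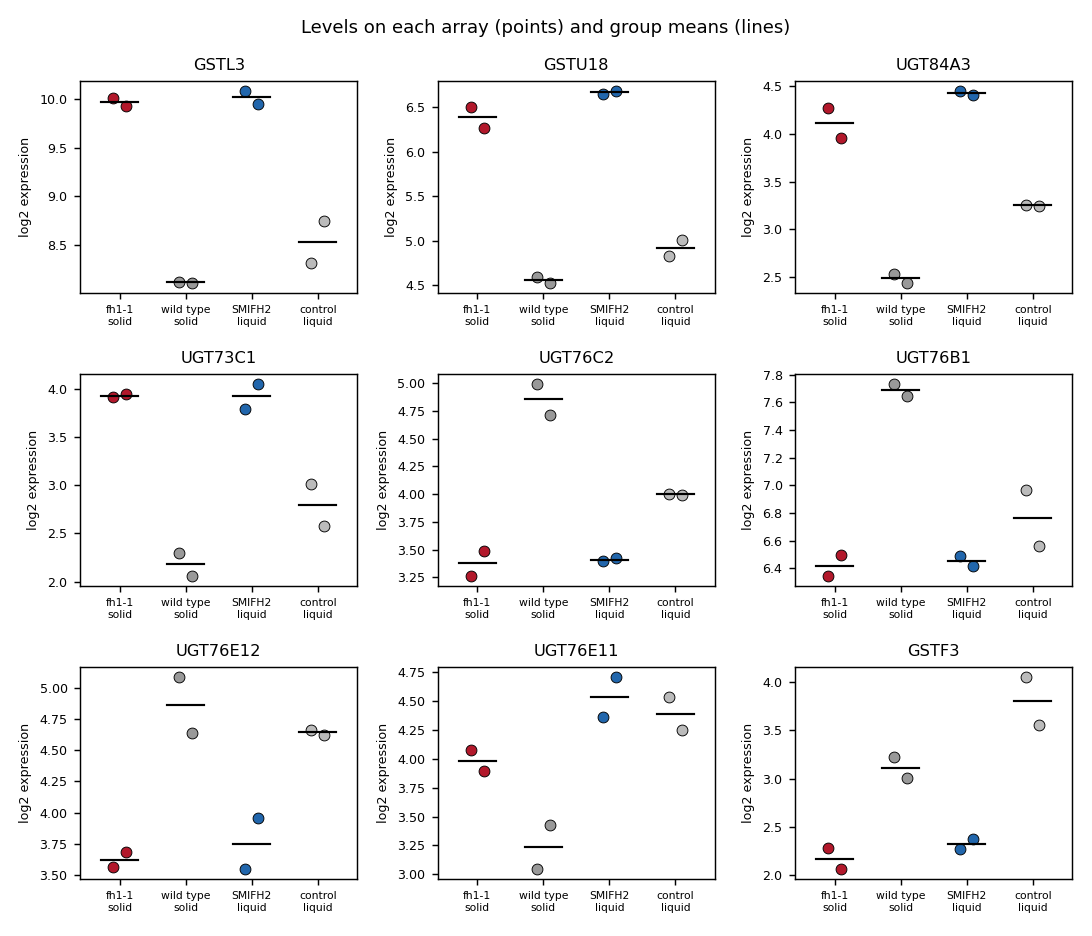
Log2 expression of 9 genes on each of the 8 arrays (points; lines are group means, n = 2 arrays per group). GSTL3, GSTU18, UGT84A3 and UGT73C1 are high on fh1-1 and SMIFH2 arrays, GSTF3 and UGT76E12 are low on them, and UGT76B1 and UGT76E11 set the wild type on solid medium apart from the 3 other groups.

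The other 6 falls with SMIFH2 were smaller than 2-fold. UGT89B1 stood at 3.34 and 3.01 with SMIFH2, against 3.80 and 3.98 in the control (-0.71 ± 0.16, adjusted p = 0.016 in limma; 0.11 without array 2 of SMIFH2, 0.068 without array 2 of the control). UGT73B2 (AT4G34135), a flavonoid glucosyltransferase, stood at 5.11 and 5.23 with SMIFH2, against 5.76 and 5.80 in the control (-0.61 ± 0.14, adjusted p = 0.019 in limma). It reached 0.11 and 0.06 without array 1 or 2 of SMIFH2, and 0.059 and 0.06 without array 1 or 2 of the control. UGT73B2 was the one fall here that had not passed in fh1-1.

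UGT76C2 stood at 3.40 and 3.42 with SMIFH2, against 4.0 and 3.99 in the control (-0.59 ± 0.16, adjusted p = 0.035 in limma). UGT87A2 stood at 7.03 and 6.96 with SMIFH2, against 7.74 and 7.42 in the control (-0.59 ± 0.16, adjusted p = 0.034 in limma). Both lost the call without array 1 or 2 of SMIFH2 (0.15 and 0.12 for UGT76C2, 0.11 and 0.15 for UGT87A2), without array 1 of the control (0.11 and 0.17) and without either fh1-1 array (0.053 and 0.06). UGT76C2 lost it without array 2 of the control too (0.087).

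UGT71C3 stood at 4.49 and 4.52 with SMIFH2, against 4.91 and 5.21 in the control (-0.56 ± 0.16, adjusted p = 0.049 in limma), and 7 of the 8 omissions of an array ended its call. These gave 0.18 and 0.15 without array 1 or 2 of SMIFH2, 0.2 without array 2 of the control, 0.074 without either fh1-1 array and 0.058 without either wild-type array of solid medium. UGT73B5 stood at 5.70 and 5.72 with SMIFH2, against 6.25 and 6.20 in the control (-0.52 ± 0.15, adjusted p = 0.043 in limma). It reached 0.17 and 0.13 without array 1 or 2 of SMIFH2, 0.14 and 0.088 without array 1 or 2 of the control and 0.073 without either fh1-1 array. The fifth rise was that of UGT74B1 (AT1G24100), the S-glucosyltransferase of glucosinolate synthesis, which stood at 4.32 and 4.40 with SMIFH2, against 3.84 and 3.59 in the control. It rose by 0.65 ± 0.15 (adjusted p = 0.018 in limma; 0.069 and 0.095 without array 1 or 2 of SMIFH2, 0.079 without array 2 of the control).

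Choices of processing other than the repeat number as a block ended several of these SMIFH2 calls. The fit of only the 4 arrays ended those of UGT71C3 (0.095), UGT73B5 (0.085), UGT87A2 (0.083), UGT76C2 (0.058), UGT73B2 (0.055) and UGT74B1 (0.054). A test of every probe set ended those of UGT71C3 (0.092), UGT73B5 (0.073), UGT76C2 (0.071) and UGT87A2 (0.068), and the trended robust prior those of UGT76C2 (0.057) and UGT71C3 (0.051).

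The fh1-1 and SMIFH2 comparisons share no arrays, but all 8 were fitted together. Each gene thus had the same estimate of spread in both, and its 2 calls are not independent. Of the genes that passed, 12 passed in both, 4 higher and 8 lower, all in the same direction. They were 52.2% of the fh1-1 calls and 85.7% of the SMIFH2 calls, where over all genes these shares were 46.6% and 70.8%. Among the 12, UGT71C3, UGT73B5, UGT76C2 and UGT87A2 lost the SMIFH2 call in the fit of only the arrays compared. Of the 23 genes that passed in fh1-1, 22 had the same sign with SMIFH2, the exception being UGT73C7 at 0.12 ± 0.20. Across the 66 genes, which are not independent of each other and come from arrays normalized together, the 2 sets of changes correlated at r = 0.82 (Spearman 0.77), and at r = 0.74 (Spearman 0.59) over all genes.

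**Figure D3:**
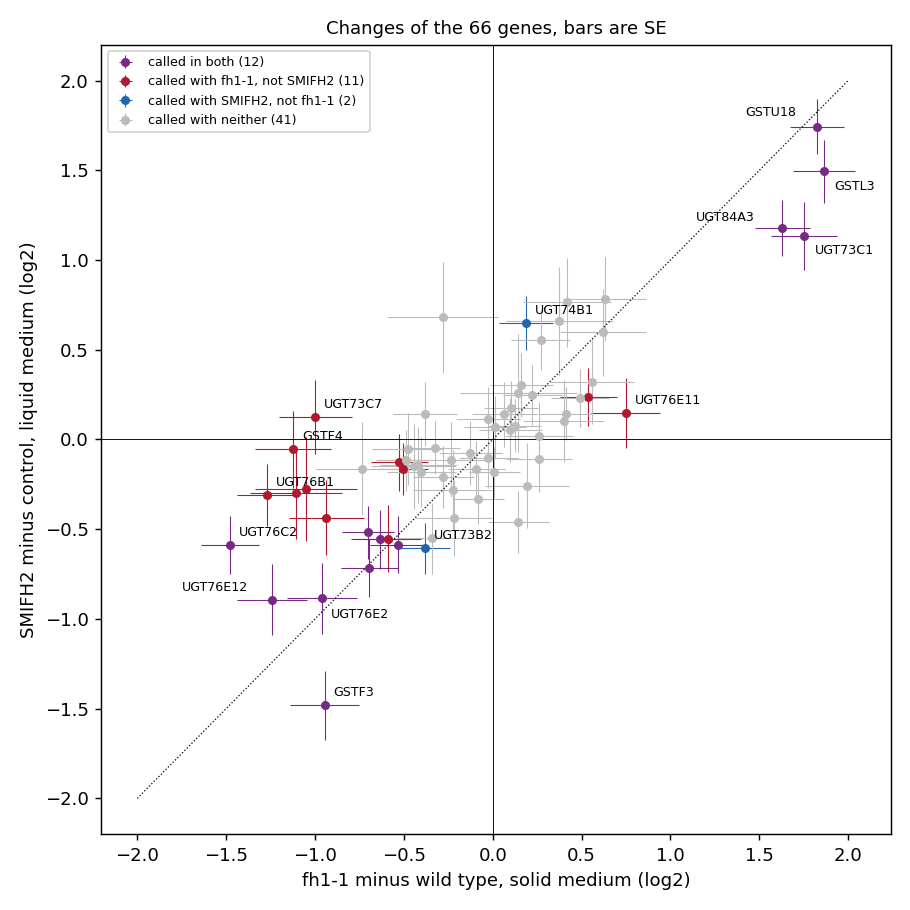
Change with SMIFH2 in liquid medium (vertical, log2) against change in fh1-1 on solid medium (horizontal, log2) for the 66 genes; bars are standard errors and the dotted line marks equal changes. The 12 genes that passed in both lie at the upper right and lower left, and GSTF4 and UGT73C7 lie left of 0 near a SMIFH2 change of 0, with UGT76B1 at a SMIFH2 change of -0.31.

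The difference between the SMIFH2 and fh1-1 changes passed for 0 of the 66 genes in limma. The background was 0.743% of all genes (0.356% higher, 0.387% lower). An unadjusted p under 0.05 in limma was found for 6 of the 66 and for 2075 of the 16554 genes tested. In simulated data 4 of 50 differences of 2-fold were recovered. The count of 0 therefore does not show that the changes were alike. Among the 11 genes that passed in fh1-1 and not with SMIFH2, the widest differences were 1.12 ± 0.29 for UGT73C7 (95% interval 0.48 to 1.77, adjusted p = 0.13 in limma), 1.07 ± 0.30 for GSTF4 (0.39 to 1.75, adjusted p = 0.16) and 0.96 ± 0.24 for UGT76B1 (0.42 to 1.5, adjusted p = 0.12). UGT76C2 passed in both and differed by 0.89 ± 0.23 (adjusted p = 0.13). Leaving out array 1 of the solid-medium wild type let UGT73C7 pass (1.44, adjusted p = 0.043), and leaving out array 1 of the liquid control let GSTU26 pass (1.56, adjusted p = 0.035). UGT76B1 passed with the trended robust prior (adjusted p = 0.039).

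These genes could be read by the levels of all 4 groups. GSTF4 stood at 3.75 and 3.56 with SMIFH2, against 3.91 and 3.50 in the liquid control, so that the wild type on solid medium, at 5.01 and 4.73, was above the 3 other groups. UGT73C7 stood at 2.70 and 2.82 with SMIFH2, against 2.67 and 2.60 in the liquid control, again under the wild type on solid medium. UGT76B1 stood at 6.49 and 6.41 with SMIFH2, against 6.96 and 6.56 in the liquid control. UGT76E11 was the reverse case, at 4.36 and 4.71 with SMIFH2, against 4.53 and 4.25 in the liquid control, with the wild type on solid medium lowest.

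The third comparison, wild type in liquid against wild type on solid medium, shares its solid arrays with the fh1-1 comparison and its liquid arrays with the SMIFH2 comparison. The groups differ in medium, shaking and light, which cannot be told apart. Of the 66 genes 6 passed, 2 higher and 4 lower in liquid medium, or 9.09% against a background of 4.71% (2.22% higher, 2.48% lower). UGT76E11 changed by 1.15 ± 0.19 and UGT84A3 by 0.77 ± 0.16, while GSTF4 changed by -1.16 ± 0.21, UGT73C7 by -1.12 ± 0.20, UGT76B1 by -0.93 ± 0.17 and UGT76C2 by -0.86 ± 0.16. Their adjusted p values in limma were 0.01 to 0.025, and in each the arrays of the 2 groups, given above, did not overlap. For UGT84A3 these were 3.26 and 3.25 in liquid medium, against 2.54 and 2.44 on solid medium, and for UGT76C2 4.0 and 3.99 in liquid medium, against 5.0 and 4.71 on solid medium.

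None of these 6 kept the call in all alternatives. A test of every probe set called 0 of them, at adjusted p values of 0.054 to 0.07 in limma. In the main fit 16 of the 66 had an unadjusted p under 0.05 in limma, as had 3059 of the 16554 genes tested. A fit of only these 4 arrays called 2. Without array 1 of the solid-medium wild type 1 passed, and UGT76E11 (0.061), UGT84A3 (0.069), UGT76B1 (0.072), GSTF4 (0.083) and UGT76C2 (0.087) did not. Without array 2 of it 2 passed, and GSTF4 (0.052), UGT76B1 (0.07), UGT73C7 (0.077) and UGT84A3 (0.13) did not. Without array 1 of the liquid control GSTF4 and UGT76B1 alone of these 6 kept the call, and another of the 66 passed beside them. Without array 2 of it UGT76E11 alone of these 6 kept the call, and the others that passed were different genes of the 66.

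By family, shares of so few genes are read beside those of all genes tested, which were 10.9% higher and 11.7% lower in fh1-1, and 7.78% higher and 7.07% lower with SMIFH2. Both phi GSTs fell in fh1-1 (median -1.03), and GSTF3 fell with SMIFH2. In fh1-1, 4 of 8 UGT76 genes fell and 1 rose, with a median change of -0.72, and with SMIFH2 3 fell and 0 rose (median -0.43). Of the 9 UGT73 genes 4 fell and 1 rose in fh1-1 (median -0.38), and 2 fell and 1 rose with SMIFH2 (median -0.28). Of the 9 UGT71 genes 2 fell in fh1-1 and 1 with SMIFH2 (medians -0.33 and -0.15), while UGT71B5 gave -0.74 ± 0.26 in fh1-1 (adjusted p = 0.071 in limma). Of the 10 tau GSTs GSTU18 alone passed, with the other 9 between -0.42 and 0.62 in fh1-1, although GSTU23 gave 0.62 ± 0.24 (adjusted p = 0.099 in limma). Of the 5 UGT85 genes only UGT85A4 passed, in fh1-1, while UGT85A5 gave 0.63 ± 0.23 in fh1-1 and 0.78 ± 0.23 with SMIFH2 (adjusted p = 0.086 and 0.051 in limma).

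Members that lay no more than 3 genes from each other formed 16 groups of 38 genes. In fh1-1, 7 of the 16 groups held both genes that passed and genes that did not, 2 held only genes that passed and 7 held none. Whether the change of a copy differed from its neighbour's was not tested, and some copies on different sides of the threshold had like changes, such as UGT71C5, UGT71C4 and UGT71C3 at -0.59, -0.33 and -0.63. UGT76E11 and UGT76E12 are neighbours, and they moved in opposite directions in fh1-1, the single group in which genes passed in both directions, with the limit given above for UGT76E11. UGT84A3 rose by 1.63, while its neighbour UGT84A4, under the 25th percentile on every array, gave 0.12 ± 0.15. UGT73C1 rose by 1.75, while UGT73C2 gave -0.28 ± 0.17.

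Of the cytokinin glucosyltransferase pair, UGT76C2 fell by 1.48 in fh1-1, and UGT76C1 gave -0.34 ± 0.20 in fh1-1 and -0.55 ± 0.20 with SMIFH2, with adjusted p values of 0.27 and 0.098 in limma. UGT73B3 fell in fh1-1, beside -0.38 ± 0.14 for UGT73B2 and -0.09 ± 0.16 for UGT73B1. UGT73D1 and UGT73C7 both fell. Probes of such close copies can take up RNA of the others, so the values of tandem genes, of GSTF3 and of UGT73C1 carry that uncertainty.

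**Figure D4:**
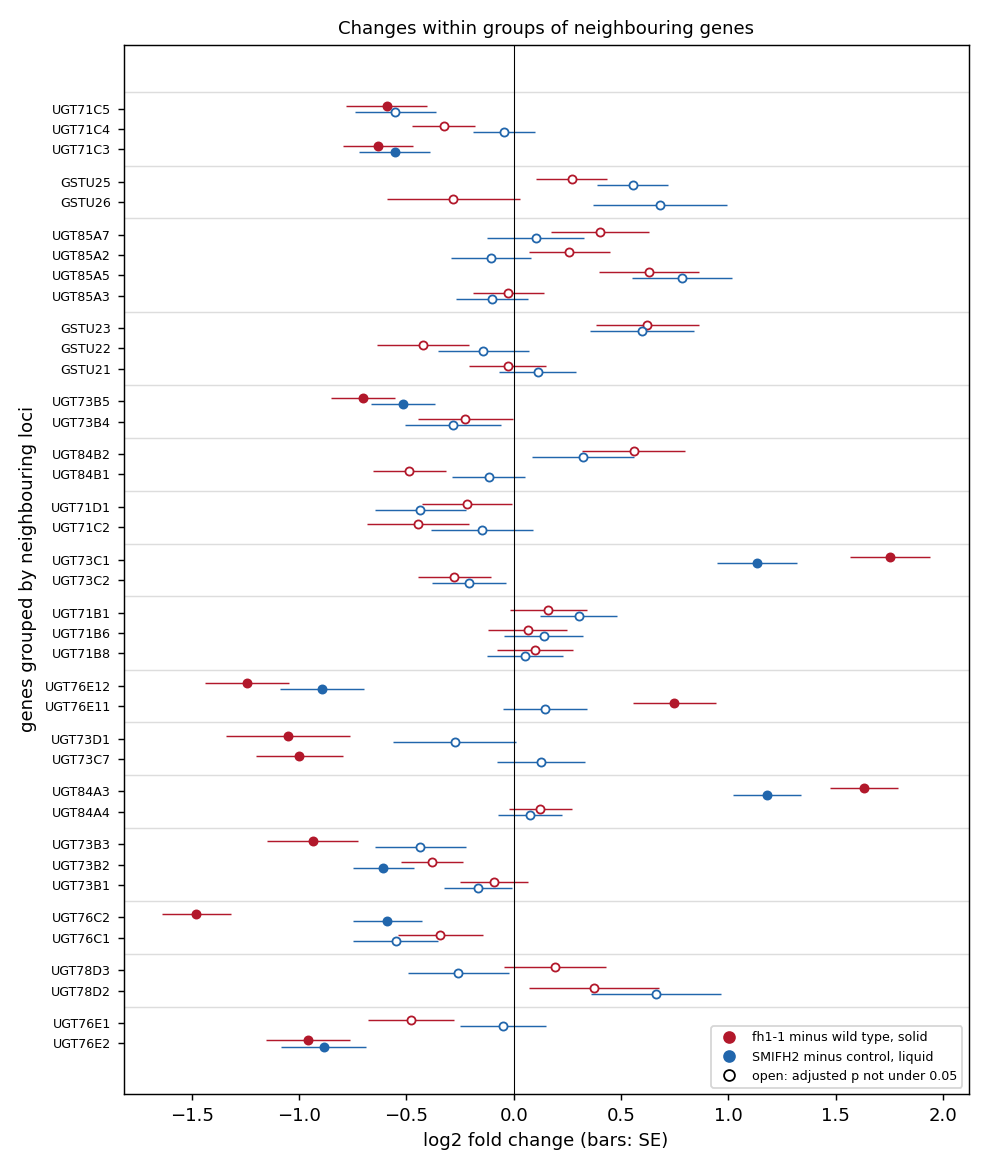
Change of each gene in the 16 groups of neighbouring members (rows), in fh1-1 against wild type (red) and with SMIFH2 against control (blue), in log2 units with standard errors; filled points passed at an adjusted p under 0.05. UGT76E12 and UGT76E11 lie on opposite sides of 0 in fh1-1, and UGT84A3 and UGT73C1 stand far to the right of their neighbours.

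Genes with 2 listed probe sets gave a check within the array. For UGT76E12 the dimmer probe set, with a mean level of 1.93, gave -0.07 ± 0.15 in fh1-1, so that this fall too was seen with the brighter probe set alone. For UGT85A4 the dimmer probe set had nearly the same mean level, 3.68 against 3.88, and gave 0.25 ± 0.21 in fh1-1, so its fall was seen with 1 of 2 probe sets of like level. The probe sets of UGT74D1 gave -0.40 and -0.20, and those of UGT71B6 0.06 and 0.30, none of which passed.

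Of the 66 genes 41 passed in no comparison. The same share over all genes was not computed, so this count is not a result about the set. Of the flavonoid enzymes, the flavonol rhamnosyltransferase UGT78D1 gave 0.49 ± 0.16 in fh1-1 (95% interval 0.13 to 0.85, adjusted p = 0.055 in limma) and 0.23 ± 0.16 with SMIFH2. The flavonoid glucosyltransferase UGT78D2 gave 0.37 ± 0.30 in fh1-1 and 0.66 ± 0.30 with SMIFH2. The other UGT78 gene, UGT78D3, gave 0.19 ± 0.24 in fh1-1 and -0.26 ± 0.24 with SMIFH2. The anthocyanin xylosyltransferase UGT79B1 gave 0.42 ± 0.25 in fh1-1 and 0.76 ± 0.25 with SMIFH2 (0.21 to 1.32, adjusted p = 0.069 in limma). Of the monolignol glucosyltransferases, UGT72E1 gave 0.22 ± 0.17 in fh1-1 (-0.15 to 0.59), while UGT72E2 and UGT72E3 were under the 25th percentile on every array. Also under it were UGT84B1, which makes the glucose ester of auxin, and UGT74F1, which glucosylates salicylic acid. The abscisic acid glucosyltransferase UGT71B6 gave 0.06 ± 0.18 in fh1-1 (-0.35 to 0.47) and 0.14 ± 0.18 with SMIFH2 (-0.27 to 0.55). GSTU25, which acts on trinitrotoluene, gave 0.55 ± 0.17 with SMIFH2 (0.18 to 0.93, adjusted p = 0.051).

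Few genes that supply the substrates were found among the genes tested. The annotation paired 16746 of the 38408 probe sets with 1 gene, so the array may hold probes of others. Counts of so few genes are read beside the shares of all genes tested, which were 10.9% higher and 11.7% lower in fh1-1. With SMIFH2 they were 7.78% and 7.07%. Of 3 sulfate assimilation genes, 2 rose and 1 fell in fh1-1, and 2 rose with SMIFH2. APS3 (AT4G14680), an ATP sulfurylase, rose by 1.51 ± 0.15 in fh1-1 and by 1.25 ± 0.15 with SMIFH2 (adjusted p = 8.4e-05 and 0.00047 in limma). SIR (AT5G04590), the sulfite reductase, rose by 0.71 ± 0.18 and by 0.89 ± 0.18 in these comparisons, at adjusted p values of 0.016 and 0.0078 in limma. In fh1-1 SIR reached 0.052 and 0.11 without array 1 or 2 of fh1-1 and 0.12 without array 2 of wild type, and with SMIFH2 0.052 without array 2 of SMIFH2 and 0.054 without array 1 of the control. APS4 (AT5G43780), another ATP sulfurylase, fell by 1.04 in fh1-1 (SE 0.20, adjusted p = 0.0046 in limma) and gave -0.20 ± 0.20 with SMIFH2.

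Of 2 genes of glutathione recycling none passed: the glutathione reductase gene GR gave 0.46 ± 0.16 in fh1-1 and 0.55 ± 0.16 with SMIFH2 (adjusted p = 0.074 and 0.051 in limma). The nucleotide-sugar gene USP gave 0.13 ± 0.15 in fh1-1. Of 3 other detoxification genes 1 rose and 1 fell in both comparisons. AOR (AT1G23740), a reductase of reactive carbonyls in chloroplasts, rose by 1.64 ± 0.18 in fh1-1 and by 1.73 ± 0.18 with SMIFH2, and ALDH7B4 (AT1G54100), an aldehyde dehydrogenase, fell by 2.23 and by 2.12 (SE 0.15 each). Their adjusted p values in limma were 9.5e-06 to 0.00022. No gene of the lists of vacuolar conjugate transporters and TGA regulators was found among the genes tested, so none was analysed here.

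Markers of shoot and root moved with these groups. Of all genes tested 10.9% passed as higher and 11.7% as lower in fh1-1, and 7.78% and 7.07% with SMIFH2. Of 15 shoot markers, mostly photosynthesis genes, 12 rose and 0 fell in fh1-1, and 8 rose and 0 fell with SMIFH2. Their mean log2 level was 7.82 and 7.70 on fh1-1 arrays, against 6.12 and 6.13 in wild type, and 7.71 and 7.87 with SMIFH2, against 6.89 and 7.02 in the liquid control. Of 9 root markers, 2 rose and 3 fell in fh1-1, and 5 rose and 0 fell with SMIFH2. Their mean log2 level was 6.71 and 6.90 on fh1-1 arrays, against 6.85 and 7.05 in wild type, and 6.81 and 6.82 with SMIFH2, against 6.20 and 6.21 in the liquid control. In liquid against solid medium 9 shoot markers rose and 5 root markers fell, with none the other way. Of all genes tested 2.22% passed as higher and 2.48% as lower in that comparison. The part of tissue proportions in the changes of the UGT and GST genes was not tested.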

How the data were processed

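NASC labelled, hybridized and scanned the RNA, per the labels' protocols. The authors deposited log2 expression values, made by RMA (background correction, joint normalization and a summary per probe set) in Affymetrix Expression Console 1.4 and compared in Transcriptome Analysis Console 3.1, per the submitters' processing notes. The table held 38408 probe sets. The platform annotation paired 16746 of them with 1 gene and 758 with several, which were left out, and the brightest probe set stood for each of the 163 genes with more than 1. RefSeq (assembly TAIR10.1) matched 16418 of 16554 genes by Entrez ID and gave names and neighbouring genes, and no coordinates were used.

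The 3 comparisons and the difference of the SMIFH2 and fh1-1 changes were fitted with limma 3.58.1 in R 4.3.3 on all 8 arrays, by group (4 residual and 5.81 prior degrees of freedom), with no filter on low values and Benjamini-Hochberg adjustment over all genes. With 2 arrays a group their number limits the precision. On simulated data of 16554 genes with 200 changed, 29 of 50 genes were recovered at 2-fold and 50 at 4-fold for fh1-1, and 35 and 50 for SMIFH2. For the difference of the changes 4 were recovered at 2-fold and 44 at 4-fold. In the data far more genes passed, 3734 in fh1-1 and 2459 with SMIFH2, so recovery there can differ. Up to 12 rises and 12 falls per comparison, the largest past the threshold without overlap of the groups, were given with every array. Others are examples, and of each supporting list up to 2 genes past the threshold were named per comparison; APS4, GR, USP and the examples that did not pass were chosen after their values were seen. The members and lists were chosen with earlier results of these data known. Alternatives were other sets of arrays, probe sets and genes, the repeat number as a block, other normalizations, another variance prior and the omission of each array. Plots used matplotlib 3.10.9 and Python 3.11.15. Sequences were not used here.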

Additional observations from a re-analysis of the deposited data

How the results depend on the processing

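The alternatives were 8 choices of processing and the omission of each of the 8 arrays, after which the lone array of a group is assumed to vary like the other groups; a fit of only the arrays compared was not run for the difference of changes, which needs all 8. They were run on the counts and on each UGT or GST gene that passed. Because the arrays compared did not overlap for these genes, omitting 1 array could not reverse a change. Several choices of processing alter only the test and leave the change as it was. A lack of reversals was thus fixed in advance in most settings. None of the 686 values of single genes reversed its direction; 541 stayed past the threshold and 145 missed it, 104 of these without an array. The fh1-1 count of 23 ranged from 17 to 24 over the choices of processing and from 11 to 23 without an array. The SMIFH2 count of 14 ranged from 8 to 15 over the choices of processing, with 8 in the fit of only the arrays compared, and from 6 to 13 without an array. The medium count of 6 was 2 in the fit of only the arrays compared and 0 over every probe set, and 1 to 6 without an array. The count of 0 for the difference was 1 with the trended robust prior and 0 to 1 without an array.

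The share of all genes that passed in fh1-1 moved with the settings too. It was 22.6% in the main fit and 16.4% over every probe set, where the count was 17. The counts under other settings, here and above, are therefore not by themselves a result about the set. The repeat number as a replicate block gave counts of 21 for fh1-1, 12 for SMIFH2, 6 for the medium and 0 for the difference. With the block 21.4% of all genes passed in fh1-1. The block ended the calls of UGT71C5 (adjusted p = 0.067 in limma) and UGT80A2 (0.056) in fh1-1, and of UGT71C3 (0.064), UGT73B5 (0.058) and UGT76C2 (0.053) with SMIFH2. Deviations of same-numbered arrays from their group means correlated at -0.06 to 0.01, and so gave no sign of a pairing. The labels do not state if same-numbered repeats were handled together, and these correlations cannot settle it. The cause of these shifts was not tested. Changes under about 2-fold were at the limit of 2 arrays a group.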

Other observations

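ATGSTF13 (AT3G62760), a phi-class GST whose symbol the naming rule did not reach, stood at 2.75 and 3.11 in fh1-1, against 2.45 and 2.44 in wild type on solid medium. Its change was 0.49 ± 0.16 in fh1-1 (adjusted p = 0.061 in limma) and 0.13 ± 0.16 with SMIFH2 (adjusted p = 0.68), so it passed in neither comparison, unlike the falls of the phi genes GSTF3 and GSTF4 in fh1-1.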
